A study of Mus musculus with 36 samples.

Results

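The genes of the lysosomal machinery that senses nutrients and sets the activity of the kinase complex mTORC1 were followed in sorted mouse cardiac macrophages. Members were 44 genes taken by symbol, of which 42 are among the 12795 genes of the count table. Rragb and Rps6kb2 were not analysed here. The 42 fall into the mTOR kinase complexes (6), the TSC complex with Rheb (4), Rag GTPases (3), Ragulator (5) and the folliculin complex (3). The others are GATOR1 (3), GATOR2 (5), sestrins (3), translation effectors (3), and calcineurin, AMPK, LKB1 and 14-3-3 genes (7). The kinase complex genes include Rictor, which defines the other mTOR complex and is not part of mTORC1.

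mTORC1 becomes active on the lysosome, where the Ragulator scaffold holds Rag GTPases that recruit it when amino acids are present and where the small GTPase Rheb switches it on. GATOR1 switches the Rag proteins off, GATOR2 restrains GATOR1, and sestrins bind GATOR2. The TSC complex switches Rheb off. Folliculin with its partners Fnip1 or Fnip2 activates the RagC and RagD arm, through which mTORC1 phosphorylates the transcription factor TFEB, and 14-3-3 proteins then keep TFEB out of the nucleus. Calcineurin removes the phosphate. Flcn, Fnip2 and Rragd have themselves been described as genes that the TFEB family switches on.

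The study sequenced polyA RNA of 36 libraries in 8 groups. Mice received tamoxifen over 7 days and then 90 min of cardiac ischemia, and macrophages were sorted 7 days after it into a CCR2-negative (CCR2neg) and a CCR2-positive (CCR2pos) fraction. CCR2 is a chemokine receptor of monocytes and of the macrophages that come from them. TFEB-TG groups (4 libraries each) carried a TFEB cassette behind a floxed stop and TFEB-wt groups (5 each) carried none. In each fraction, groups labeled with Cre (mac-TFEB for TFEB-TG, CX3CR1-Cre for TFEB-wt) stood beside groups of both genotypes labeled Cre-neg. The words with Cre and without Cre name these labels only. The labels give every animal a tamoxifen-dependent Cre placed at Cx3cr1, a gene that monocytes and macrophages express, and a floxed-stop Td-Tomato reporter, and the sources used here do not say what sets the Cre-neg cells apart. Labels of 9 animals (TFEB-TG 1 to 4, TFEB-wt 1 to 5) each occur in 4 libraries, and the labels do not state that these are separate animals, so the spread that p-values rest on is that of these libraries and may be partly technical.

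Libraries held 13797484 to 32645783 counts (median 19676040). Tfeb, the targeted gene, was counted at 335, 250, 98.1 and 67.4 CPM (counts scaled to library size) in CCR2neg mac-TFEB libraries 1 to 4 and at 6.66 to 8.87 CPM in the CX3CR1-Cre libraries of that fraction. CCR2pos mac-TFEB libraries held 224.8, 279.8, 60.4 and 68.2 CPM against 4.42 to 11.5 CPM. Without Cre, TFEB-TG libraries held 12.4 to 36.5 CPM against 4.57 to 10.9 CPM in TFEB-wt in CCR2neg cells, and 19.1 to 51.0 against 5.10 to 7.17 CPM in CCR2pos cells. Macrophage genes summed to 32963 to 47517 CPM, and the summed markers of each of 9 other cell types were at most 602 CPM. The libraries CCR2neg TFEB-TG Cre-neg 1 and CCR2neg mac-TFEB 1 lay farthest from their group means (root mean square deviation over genes of 0.623 and 0.509 on the log2 scale, median 0.344), and the first held 503 CPM of cardiomyocyte transcripts. Below, values written with ± are log2 fold changes with their standard error unless CPM is named, and "called" means an adjusted p below 0.05 in the quasi-likelihood test of edgeR, with adjustment over 12795 genes.

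The members' promoters were searched for CACGTG, the core to which TFEB binds, and for its extension TCACGTG (reverse complement CACGTGA), in RefSeq windows of 250 bases before to 50 after each start (GRCm38.p6), on both strands. Of the 42 members 36 had a window. CACGTG lay in 6 of them (16.7%) and in 7.15% of 32851 promoters of all genes. The extended form, which contains CACGTG, lay in 5 (13.9%) and in 3.77% of all promoters. Each member was counted once, while the share over all genes is per promoter and includes genes absent from the count table. The shares are thus not strictly alike. The matches are shown 5′ to 3′ on the gene's strand with the motif in capitals, since they show which parts of the machinery carry the letters.
Rheb: gcgcgcggTCACGTGggtgtgttg
Tbc1d7: gttaacatcCACGTGtgggtggga
Rragc: gattccgggCACGTGAtagtacca
Lamtor1: ccttcctaTCACGTGccgcgggtc
Lamtor4, first: gaaagttaaCACGTGAacagcttt
Lamtor4, second: acagctttTCACGTGtaaaccaaa
Fnip1: gtttgctgcCACGTGAtacggctc
The first base of the CACGTG core lay 96 bases before the start of Rheb (chromosome 5), 53 before Tbc1d7 (13) and 112 before Rragc (4). It lay 68 before Lamtor1 (7), 120 and 104 before Lamtor4 (5) and 75 before Fnip1 (11). The genes thus cover the mTORC1 activator, a TSC subunit, a Rag GTPase, a pair of Ragulator subunits and a folliculin partner. The window of Fnip2 does not hold these letters. A match is a description of the sequence and not a measured binding site.

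Levels of the machinery spanned a wide range in these macrophages. Per kb of exon, the Ragulator subunit gene Lamtor2 averaged 112 CPM per kb over the 36 libraries and Lamtor4 62.7. The 14-3-3 gene Ywhaz was at 85.3. Another Ragulator gene, Lamtor3, was lower, with group means of 15.6 to 20.2. Values per kb rest on the length of all annotated exons, and the part of that length in the ranks between genes was not tested. Mtor and the subunits that define its complexes were low, with Mtor at 1.18, Rptor (raptor) at 1.46 and Rictor, which defines the other mTOR complex, at 0.804. Other kinase genes were higher, with the S6 kinase gene Rps6kb1 at 7.14 and the AMPK catalytic gene Prkaa1 at 8.64. Members had a median of 6.60 CPM per kb against 3.13 over 12788 genes with an exon length, and 16 members lay below the latter.

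Within families the levels per kb were uneven. Fnip1 (15.4 CPM per kb) was above Fnip2 (4.54), with Flcn itself at 27.9. Among Rag genes Rraga and Rragc stood at 17.1 and 14.4 and Rragd at 0.301. Among sestrins Sesn1 held 29.1, Sesn2 3.05 and Sesn3, with 0 to 33 reads in a library, 0.0354. Tsc1 (0.920) was below Tsc2 (2.51), to which it binds.

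**Figure D1:**
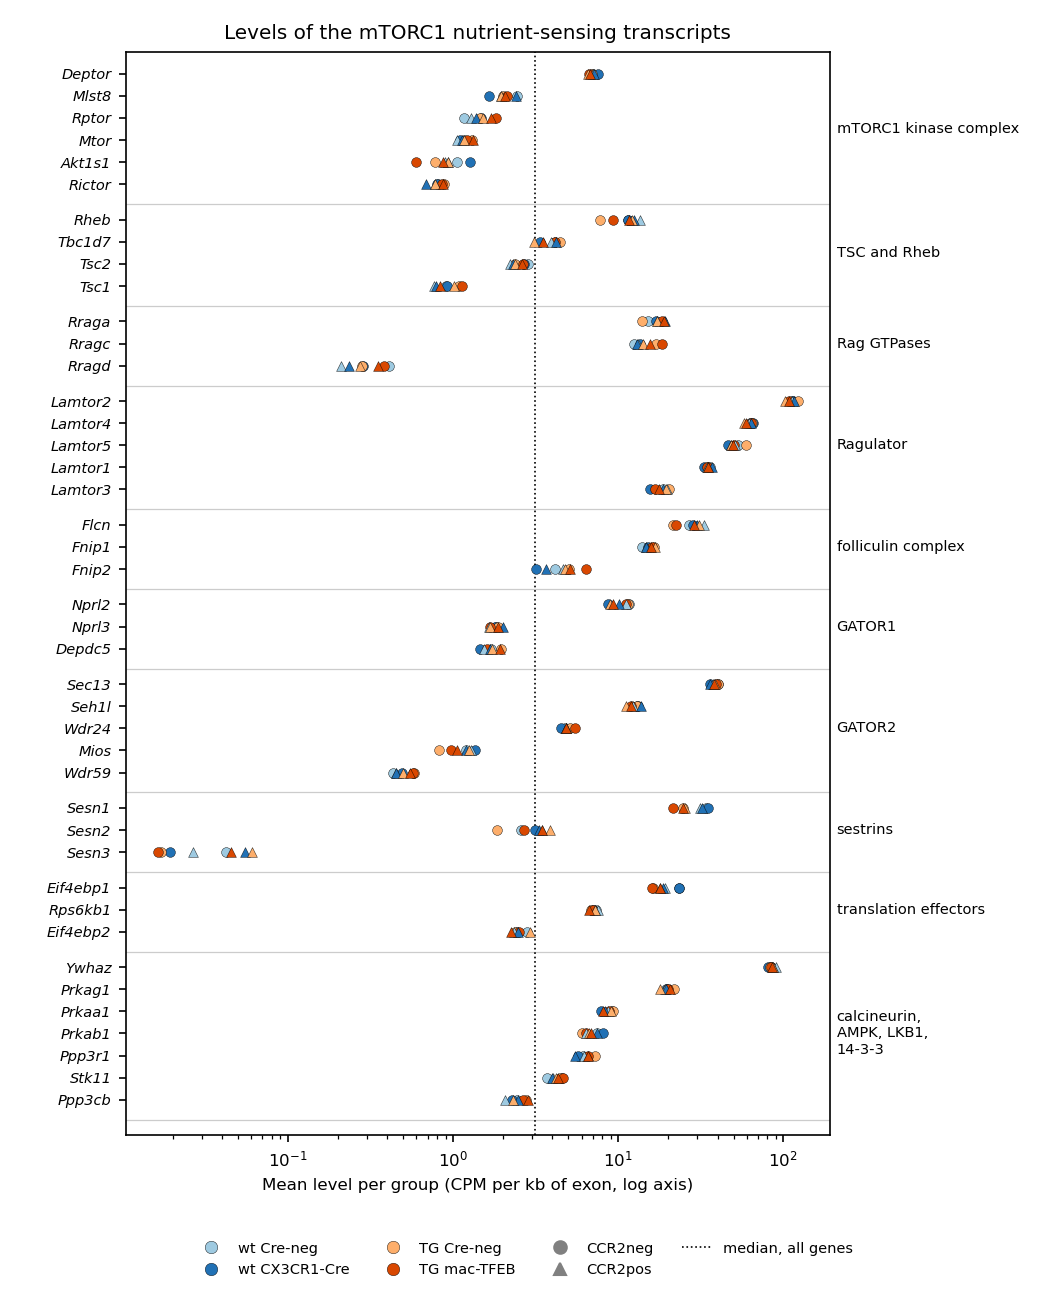
Mean CPM per kb of exon (log axis) of the 42 members in each of the 8 groups, ordered by role. The group means of a gene lie close together relative to the range between genes, from Lamtor2 at 112 to Sesn3 at 0.0354, and the dotted line marks the median of all genes (3.13).

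Spread between libraries of a group was similar to that of other genes of their level. The median within-group SD was 0.219 on the log2 scale for members, 0.274 for all genes and 0.224 for genes between the members' lower and upper quartile of level (13.8 to 62.0 CPM). Of the within-group squares (log2 of CPM + 0.5), a median of 43.6% lay between animal labels for members and 44.3% for all genes, where labels that share nothing would give 25%. Sesn1 (87.5%) and Fnip2 (82.4%) had the highest shares among members.

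The comparison of mac-TFEB with CX3CR1-Cre asks what changes with TFEB. In CCR2neg cells 1 of 42 members was called, Fnip2, which was higher at 1.02 ± 0.19 (adjusted p = 0.00329). Of all genes 1.38% were called, and 0.922% were called higher. The members' median log2 fold change was 0.07, beside 0.01 for all genes, and 13 members (31.0%) had an unadjusted p under 0.05 against 14.6% of all genes, 6 higher and 7 lower.

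Fnip2 (ENSMUSG00000061175, chromosome 3, 79455974 to 79567796, GRCm38) encodes a partner of folliculin. In CCR2neg mac-TFEB libraries 1 to 4 it was counted at 42.0, 36.7, 78.7 and 56.9 CPM. CX3CR1-Cre libraries 1 to 5 held 23.4, 30.5, 27.6, 27.8 and 23.0 CPM. The groups do not overlap, and library 3 is highest although its Tfeb level (98.1 CPM) is below those of libraries 1 and 2. Without mac-TFEB library 3 the difference was 0.77 with an adjusted p of 0.0634, and in a fit to these 9 libraries alone it was 1.03 with an adjusted p of 0.0525. The summed markers of each of the 9 other cell types overlapped between these groups, and of their genes 1 of 7 dendritic cell markers was called, as lower.

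Fnip2 followed the animal label in TFEB-TG cells, with and without Cre. Labels 3 and 4 held 44.8 to 78.7 CPM in their 8 libraries and labels 1 and 2 held 30.4 to 42.0 in theirs, and these ranges do not overlap. Labels 3 and 4 are the ones with reads of Xist, which is transcribed from the inactive X chromosome, and they had the lower Tfeb levels, 12.4 to 98.1 CPM against 18.6 to 335 in labels 1 and 2. In TFEB-wt cells libraries with Xist (4 labels) held 23.0 to 48.2 CPM of Fnip2 and those without it (1 label) 23.4 to 40.8, which overlap. With a term for Xist in the fit, the CCR2neg difference was 1.10 (edgeR, adjusted p = 1.95e-05). That term divides the TFEB-TG labels in the same way as their Fnip2 levels do. The fit also treats libraries of the same label as independent, although Fnip2 followed the label, so this p-value may be too small.

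**Figure D2:**
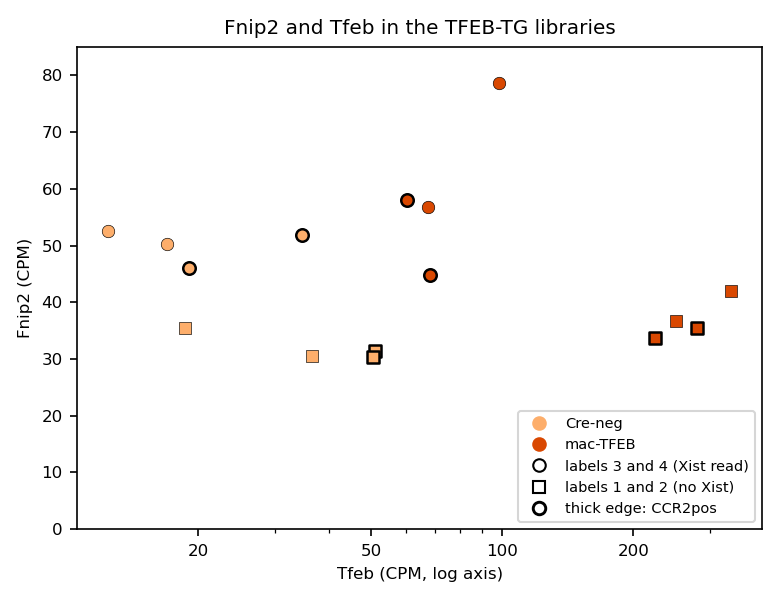
Fnip2 (CPM) against Tfeb (CPM, log axis) in the 16 TFEB-TG libraries; circles are labels 3 and 4, squares labels 1 and 2, and thick edges CCR2pos cells. Circles (44.8 to 78.7 CPM of Fnip2) lie above squares (30.4 to 42.0), and the libraries with most Tfeb are squares.

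Within an animal label the CCR2neg mac-TFEB library was above its Cre-neg partner in 4 of 4 pairs. In the edgeR fit of group means, which does not use the pairing, the difference was 0.34 ± 0.21 (adjusted p = 0.785). In TFEB-wt the CX3CR1-Cre library was below its Cre-neg partner in 5 of 5 pairs, at -0.38 ± 0.19 in the same unpaired fit (adjusted p = 0.371). Cre-neg levels were 30.5, 35.5, 50.2 and 52.6 CPM in TFEB-TG and 30.3, 36.5, 41.5, 32.2 and 31.8 CPM in TFEB-wt, which overlap. The difference with TFEB beyond that of the cassette alone, where Tfeb was also higher, was 0.73 ± 0.28 (adjusted p = 0.999). With the animal label as a fixed block it was 0.69 ± 0.15 and was called (adjusted p = 0.0281), as was the lower value with Cre in TFEB-wt (-0.38 ± 0.10, adjusted p = 0.0123). With the label as a random effect neither was called. For this difference of differences 0 members and 0% of all genes were called by edgeR without the block, with 2 members (Fnip2 and Nprl2) and 3.88% of genes at an unadjusted p under 0.05.

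In CCR2pos cells no member was called with TFEB (0 of 42, against 0.0391% of all genes). At an unadjusted p under 0.05 stood 1 member, against 4.62% of genes, and DESeq2 and limma-voom called 0 members. Fnip2 was this member, at 0.49 ± 0.20. Its mac-TFEB libraries held 33.6, 35.5, 58.0 and 44.8 CPM and its CX3CR1-Cre libraries 29.8, 36.2, 31.6, 27.8 and 27.6 CPM, so that the groups overlap. The difference of the TFEB response between the fractions was -0.53 ± 0.28 (CCR2pos minus CCR2neg, adjusted p = 1.00), and for this difference 0 members and 0% of genes were called, with 2 members and 3.95% at an unadjusted p under 0.05. Beyond the cassette, 0 members and 0% of genes were called in CCR2pos cells, with 0 members and 1.13% at an unadjusted p under 0.05.

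**Figure D3:**
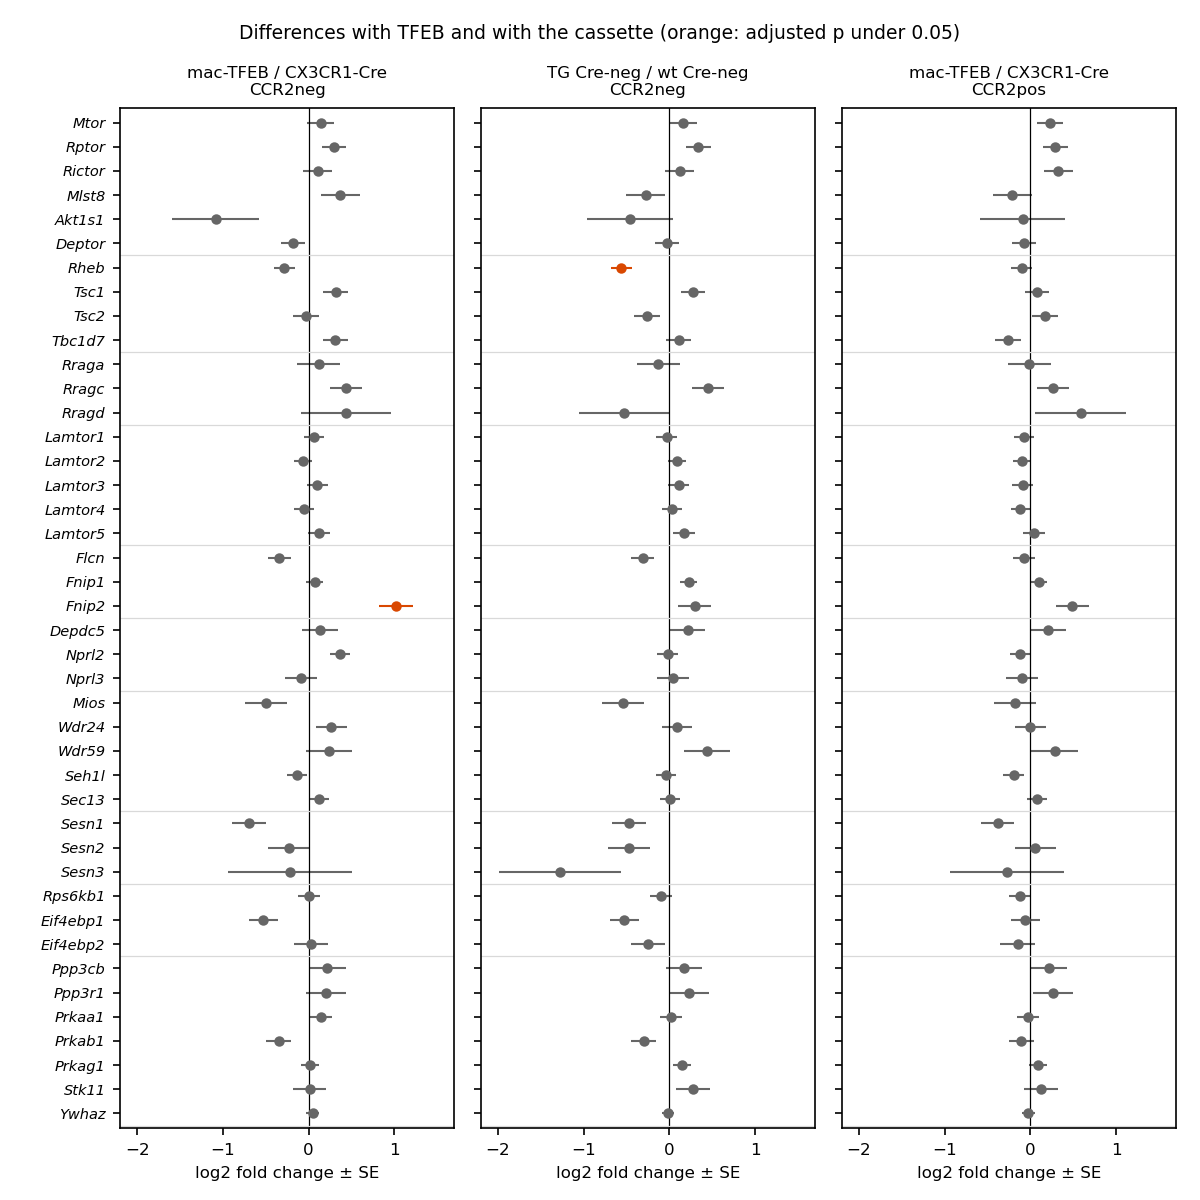
Log2 fold change ± SE of the 42 members with TFEB in CCR2neg cells, with the cassette alone in CCR2neg cells and with TFEB in CCR2pos cells, in order of role; orange marks an adjusted p under 0.05. Fnip2 (1.02) and Rheb (-0.56) are the called values, and the median size of the difference is 0.19 with TFEB in CCR2neg and 0.12 in CCR2pos cells.

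The other members of the folliculin and Rag arm were not called with TFEB by edgeR. In CCR2neg cells limma-voom with quality weights, which called 8 members and 1351 genes, called Flcn (-0.37, adjusted p = 0.0283) and Rragc (0.56, adjusted p = 0.0210). Flcn, the catalytic subunit, was at -0.34 ± 0.13 in CCR2neg cells (adjusted p = 0.205), with mac-TFEB libraries at 115, 99.9, 90.3 and 82.0 CPM and CX3CR1-Cre libraries at 122, 95.5, 134.8, 127.8 and 132 CPM. The groups overlap through CX3CR1-Cre library 2. Fnip1 was at 0.07 ± 0.10, with 99.7, 100.3, 136 and 118 CPM against 106, 96.5, 108, 121 and 108 CPM. The ratio of Fnip2 to Fnip1 per kb was therefore 0.393 ± 0.077 (SD, n = 4) in CCR2neg mac-TFEB and 0.210 ± 0.036 (SD, n = 5) in CX3CR1-Cre libraries, without overlap (0.311 to 0.491 against 0.181 to 0.270).

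Rragc, a nucleotide-binding Rag subunit, was at 0.44 ± 0.19 (adjusted p = 0.257). Its mac-TFEB libraries held 63.8, 38.5, 65.7 and 78.1 CPM and its CX3CR1-Cre libraries 37.6, 46.9, 56.8, 36.9 and 48.7 CPM. Library 2 of mac-TFEB lies among the controls and the other 3 above them. Rragd, its paralogue, was read at 1.59, 1.42, 2.48 and 2.43 CPM against 1.96, 1.23, 1.54, 0.672 and 1.92 CPM (0.44 ± 0.52), which overlap. In CCR2pos cells Flcn was at -0.07 ± 0.13, Fnip1 at 0.10 ± 0.10, Rragc at 0.26 ± 0.19 and Rragd at 0.59 ± 0.53, each with an adjusted p of 1.00.

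**Figure D4:**
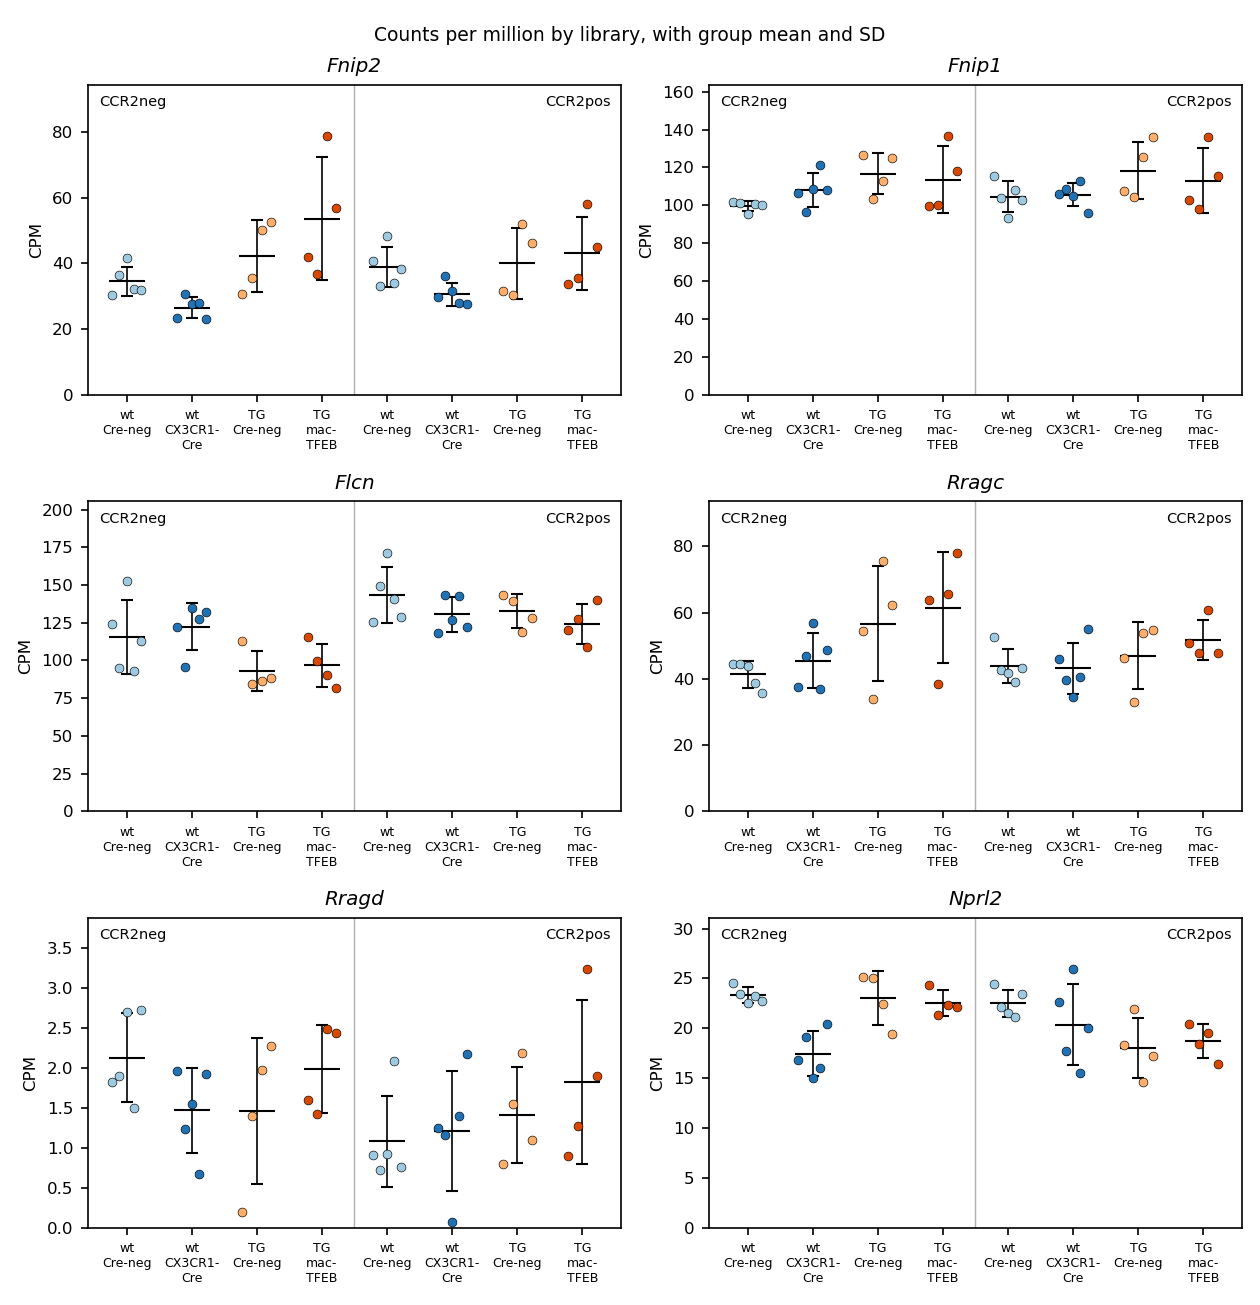
CPM of Fnip2, Fnip1, Flcn, Rragc, Rragd and Nprl2 in each library of the 8 groups, in label order, with group mean and SD. Fnip2 separates CCR2neg mac-TFEB (36.7 to 78.7) from CX3CR1-Cre (23.0 to 30.5), and Nprl2 separates CCR2neg CX3CR1-Cre (15.0 to 20.4) from Cre-neg (22.5 to 24.6).

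No member of the mTOR kinase complexes or of the TSC complex was called with TFEB by edgeR. Mtor was at 0.14 ± 0.15 in CCR2neg cells, with 13.3, 9.43, 12.5 and 13.6 CPM in mac-TFEB against 11.9, 11.2, 10.3, 10.3 and 11.7 CPM in CX3CR1-Cre libraries, which overlap. Rptor was at 0.30 ± 0.14 (adjusted p = 0.338), with 25.3, 23.4, 23.4 and 25.6 against 21.5, 21.1, 21.4, 16.9 and 18.5 CPM, which do not overlap. Tsc2, the subunit that switches Rheb off, was at -0.03 ± 0.15, with 29.1, 26.2, 20.6 and 25.6 against 29.2, 25.9, 27.5, 24.4 and 22.4 CPM, which overlap. Tsc1 (0.32 ± 0.14) and Tbc1d7 (0.31 ± 0.15), the other TSC subunits, had an unadjusted p under 0.05, and Mlst8 was at 0.37 ± 0.23. In CCR2pos cells Mtor, Rptor and Tsc2 were at 0.23 ± 0.15, 0.29 ± 0.14 and 0.17 ± 0.15. The 5 Ragulator genes lay between -0.07 and 0.12 in CCR2neg cells and between -0.12 and 0.04 in CCR2pos cells, none with an unadjusted p under 0.05.

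Outside the folliculin complex, the values farthest from 0 with TFEB in CCR2neg cells were negative. Akt1s1, an inhibitor within mTORC1 that was read at 0.820 to 6.36 CPM, was at -1.08 ± 0.51 in CCR2neg cells (adjusted p = 0.314). With quality weights in limma-voom it was called (adjusted p = 0.0446). Sesn1 was at -0.69 ± 0.20 (adjusted p = 0.0788) and Eif4ebp1, a repressor of translation that mTORC1 switches off, at -0.53 ± 0.17 (adjusted p = 0.126). GATOR1 and GATOR2 hold 8 members, of which Nprl2 (0.37 ± 0.12, adjusted p = 0.134) and Mios (-0.50 ± 0.24) had an unadjusted p under 0.05. The 7 calcineurin, AMPK, LKB1 and 14-3-3 genes lay between -0.35 and 0.22, and of them the AMPK subunit gene Prkab1 (-0.35 ± 0.15) had such a p. Sesn1 passed with DESeq2 (adjusted p = 0.0212), limma-voom with quality weights (0.00299), the label as a random effect (0.00421) and an Xist term (0.00998). Of these fits, only that with the random effect takes account of the label.

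Sesn1 also followed the animal label. The 4 libraries of each TFEB-TG label spanned 61.8 to 84.5 CPM for label 1, 127 to 151 for label 2, 72.6 to 88.0 for label 3 and 82.6 to 93.7 for label 4, over both fractions and both Cre states. The 20 TFEB-wt libraries ranged from 102 to 183 CPM. Label 2 thus lies in the range of TFEB-wt and labels 1, 3 and 4 below it. Without mac-TFEB library 2 the CCR2neg difference with TFEB was -0.94 and was called (adjusted p = 0.0121).

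What differs with the cassette alone was asked by comparing Cre-neg libraries of the 2 genotypes. Tfeb itself was higher in TFEB-TG there by edgeR, at 1.65 ± 0.43 in CCR2neg cells (adjusted p = 0.0697) and 2.68 ± 0.43 in CCR2pos cells (adjusted p = 0.00249). The cassette alone is thus not a control without added Tfeb. Values beyond the cassette may leave out part of a response to Tfeb, which was not tested. In CCR2neg cells 1 of 42 members was called, Rheb, which was lower at -0.56 ± 0.12 (adjusted p = 0.0297), against 0.406% of all genes, 0.367% in that direction. Rheb (ENSMUSG00000028945, chromosome 5, 24802823 to 24842624), the direct activator of mTORC1, was at 75.1, 58.9, 44.2 and 61.6 CPM in TFEB-TG and 82.3, 75.3, 98.3, 72.1 and 114 CPM in TFEB-wt Cre-neg libraries. The groups overlap only in that TFEB-TG library 1 is above TFEB-wt library 4. In mac-TFEB against CX3CR1-Cre libraries, the same genotypes with Cre, Rheb was at -0.28 ± 0.12 (adjusted p = 0.255) with 71.0, 73.4, 77.4 and 67.6 CPM against 83.0, 96.3, 86.5, 83.7 and 90.4 CPM, without overlap.

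The call of Rheb was lost in a fit to these 9 libraries alone (-0.56, adjusted p = 0.545) and on leaving out TFEB-wt Cre-neg library 3 or 5 or TFEB-TG Cre-neg library 2, 3 or 4 (adjusted p of 0.0866, 0.109, 0.0575, 0.103 and 0.0712). Without TFEB-TG Cre-neg library 1, the one with cardiomyocyte transcripts, it was -0.68 (adjusted p = 0.00477) and Eif4ebp1 was called as well (-0.69, adjusted p = 0.0245).

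Of the members 8 had an unadjusted p under 0.05 with the cassette in CCR2neg cells, against 13.1% of genes. All of them except Fnip1 (0.23 ± 0.10) had one with TFEB too, and in the same direction. The matching overlap over all genes is not given here, so this overlap cannot be read as particular to the members. With TFEB and with the cassette the values were 0.30 and 0.33 for Rptor, 0.44 and 0.45 for Rragc, -0.34 and -0.31 for Flcn, and -0.50 and -0.55 for Mios, a GATOR2 subunit. They were -0.69 and -0.47 for Sesn1, -0.53 and -0.52 for Eif4ebp1 and -0.28 and -0.56 for Rheb. The 2 comparisons use different libraries of the same 9 animal labels, so these values are not independent, and differences between animals and between genotypes cannot be told apart in them. Beyond the cassette these 7 genes had no unadjusted p under 0.05.

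In CCR2pos cells 0 of 42 members were called with the cassette, against 0.0313% of genes, and 3 had an unadjusted p under 0.05, against 3.07%. These were Tsc1 (0.41 ± 0.14), Tbc1d7 (-0.34 ± 0.15), the third TSC subunit, and Nprl2 (-0.32 ± 0.12). DESeq2 and limma-voom called 0 members there. Rheb was at -0.16, with 90.0, 98.3, 90.9 and 93.7 CPM in TFEB-TG and 97.0, 117, 113, 91.6 and 103 CPM in TFEB-wt, which overlap.

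Groups labeled with Cre were compared with Cre-neg groups within each genotype. Cx3cr1 was higher with the Cre label in TFEB-wt CCR2neg cells (1.02 ± 0.19, adjusted p = 0.00186). It was not called in TFEB-TG CCR2neg (0.58), TFEB-wt CCR2pos (0.62) or TFEB-TG CCR2pos cells (0.14). Whether the differences below come from Cre was not tested. In TFEB-wt CCR2neg cells 1 of 42 members was called, Nprl2, which was lower with Cre at -0.42 ± 0.12 (adjusted p = 0.0420), against 2.6% of all genes, 1.63% in that direction. Nprl2 (ENSMUSG00000010057, chromosome 9, 107542226 to 107545706) is a GATOR1 subunit. CX3CR1-Cre libraries held 16.8, 19.1, 15.0, 16.0 and 20.4 CPM and Cre-neg libraries 24.6, 23.5, 22.5, 23.2 and 22.8 CPM. The groups do not overlap, and the level was lower with Cre in 5 of 5 labels. These CX3CR1-Cre libraries are also the controls of the TFEB comparison, so the results for Nprl2 in both are not independent.

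The call of Nprl2 was lost in a fit to these 10 libraries alone (adjusted p = 0.105) and on leaving out any 1 of them except CX3CR1-Cre library 5 (adjusted p of 0.0504 to 0.131, with values of -0.38 to -0.44). With the animal label as a fixed block 4 members were called, all lower with Cre, and 965 of all genes against 333 without it. These members were Nprl2 (adjusted p = 0.0162), Fnip2, the mTOR subunit Mlst8 (-0.55 ± 0.17, adjusted p = 0.0396) and the Ragulator subunit Lamtor3 (-0.26 ± 0.08, adjusted p = 0.0440). With the label as a random effect in limma-voom 2 members were called, Nprl2 (adjusted p = 0.00614) and Mlst8 (adjusted p = 0.0365), and 977 genes. In TFEB-TG CCR2neg cells Nprl2 was at -0.03 with Cre, and mac-TFEB libraries (24.4, 21.3, 22.3 and 22.2 CPM) overlapped the Cre-neg ones (25.2, 25.0, 22.5 and 19.4 CPM).

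The other Cre comparisons called no member. In TFEB-TG CCR2neg cells 0 of 42 were called against 0.156% of genes, and at an unadjusted p under 0.05 stood Rheb (0.27 ± 0.12), Lamtor3 (-0.27 ± 0.13) and Sesn2 (0.54 ± 0.26), 3 members against 7.66% of genes. In CCR2pos cells 0 of 42 were called in TFEB-TG (0.0156% of genes) and 0 in TFEB-wt (0.00782%). There, 0 members had an unadjusted p under 0.05 in either genotype, against 2.08% and 5.64% of genes. DESeq2 and limma-voom called 0 members in these 3 comparisons.

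CCR2pos and CCR2neg cells differed in 5 of 42 members (11.9%) as the mean over the 4 genotype and Cre backgrounds, against 13.9% of all genes. Higher in CCR2pos were 4 (7.45% of genes in that direction) and lower was 1 (6.41%). Rheb (0.33 ± 0.06, adjusted p = 0.000154) and Flcn (0.32 ± 0.06, adjusted p = 0.000706) were higher, as were the stress-induced sestrin Sesn2 (0.48 ± 0.12, adjusted p = 0.00543) and Sesn3 (1.03 ± 0.35, adjusted p = 0.0426). Tsc1, the scaffold of the TSC complex, was lower (-0.26 ± 0.07, adjusted p = 0.0125). The other 37 members were not called. The same 5 members (11.9%) were those with an unadjusted p under 0.05, against 25.6% of all genes.

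The 36 libraries form 18 pairs of the same label and Cre status. Rheb was higher in the CCR2pos library in 16 of 18 pairs, with a lowest, median and highest level of 80.9, 95.4 and 117 CPM against 44.2, 76.4 and 114 CPM in CCR2neg libraries. Flcn (ENSMUSG00000032633, chromosome 11, 59791408 to 59810016) was higher in 15 of 18, with 109, 128.7 and 171 CPM against 82.0, 106 and 153 CPM. The ranges overlap in both genes and the CCR2pos floor is higher in both.

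Sesn2 (ENSMUSG00000028893, chromosome 4, 132492032 to 132510501) was higher in 15 of 18 pairs and Tsc1 (ENSMUSG00000026812, chromosome 2, 28641228 to 28691167) lower in 16 of 18. Sesn2 levels were 8.49, 12.1 and 15.2 CPM in CCR2pos against 4.67, 8.50 and 16.2 CPM in CCR2neg libraries. Tsc1 levels were 7.27, 10.0 and 13.8 CPM in CCR2pos against 9.25, 11.5 and 16.1 CPM in CCR2neg libraries. Sesn3 was higher in 15 of 18 pairs but was read at 0 to 1.22 CPM. Its adjusted p ranged from 0.0147 to 0.0837 on leaving out 1 library at a time and was above 0.05 in 21 of 36 such fits, and without the 2 libraries farthest from their groups it was 0.0758. Within TFEB-wt Cre-neg cells it was at -0.62 ± 0.64, against 1.45 to 1.79 in the other 3 backgrounds.

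**Figure D5:**
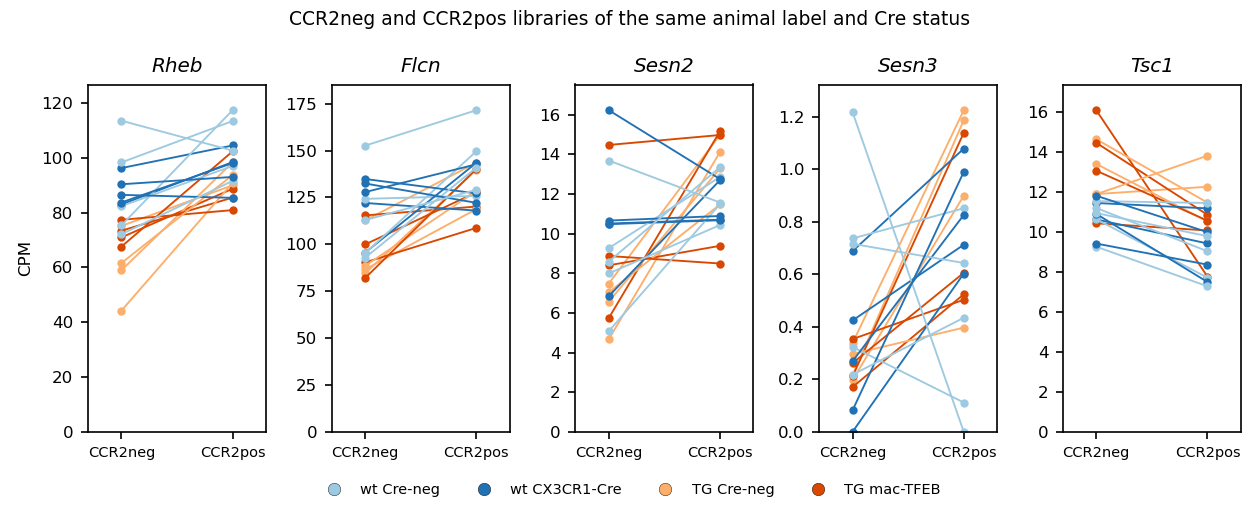
CPM of the 5 called members in CCR2neg and CCR2pos libraries of the same animal label and Cre status (18 lines per gene, colored by background). Most lines rise for Rheb (16 of 18), Flcn, Sesn2 and Sesn3 (15 of 18 each) and fall for Tsc1 (16 of 18).

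For Rheb, Flcn and Sesn2 the difference between fractions was largest in TFEB-TG Cre-neg cells. There the 3 were called, at 0.64 ± 0.13, 0.51 ± 0.14 and 1.06 ± 0.26, and they were 3 of 42 members, against 3.26% of genes. In mac-TFEB cells the values were 0.30 ± 0.12, 0.36 ± 0.14 and 0.36 ± 0.25. In TFEB-wt Cre-neg cells they were 0.24 ± 0.11, 0.31 ± 0.12 and 0.42 ± 0.23, and in CX3CR1-Cre cells 0.13 ± 0.11, 0.09 ± 0.12 and 0.07 ± 0.22. In these 3 backgrounds 0 members were called, against 0.539%, 2.35% and 0.797% of genes. The difference between backgrounds was not tested. For Rheb, this value and the cassette call in CCR2neg cells use the same CCR2neg TFEB-TG Cre-neg libraries, so they are not independent. Their mean was 60.0 CPM, against means of 72.3 to 88.3 CPM in the other CCR2neg groups.

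Markers of dendritic cells moved with the fraction. The 7 markers summed to 56.7 to 213 CPM (median 143) in CCR2pos and 46.5 to 127 CPM (median 68.7) in CCR2neg libraries. Of these, 4 of 7 were called higher. Among all 7, called or not, medians over all libraries were 54.1 CPM for Cd209a, 25.0 for Ccr7, 10.1 for Batf3 and 5.13 for Xcr1. Those of Flt3, Zbtb46 and Clec9a were 4.19, 2.34 and 0.581 CPM, and Clec9a was at 0 in 2 libraries. Cd209a had the highest median and ranged from 5.60 to 144 CPM, so the dendritic cell sums depend strongly on it. Neutrophil markers summed to 103 to 148 against 66.3 to 145 CPM (1 of 5 called higher) and B cell markers to 109 to 211 against 74.8 to 187 CPM (1 of 4). Csf3r made up most of the neutrophil sum, with a median of 106 CPM over all libraries. The other neutrophil markers had medians of 0.144 to 2.96 CPM. The part of these cell types in the member differences was not tested. In bulk libraries, fewer cells of a type and less RNA per cell cannot be told apart.

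Of 62 further listed genes of the pathway (growth factor input, mTORC2 and assembly, other nutrient sensors, other AMPK, calcineurin and 14-3-3 genes, and outputs), 1 was called with TFEB in CCR2neg cells (1.38% of all genes) and 0 in CCR2pos cells (0.0391%). It was Sgk1, a kinase downstream of mTORC2 (0.58 ± 0.12, adjusted p = 0.00675). In TFEB-wt CCR2neg cells Sgk1 was lower with Cre (-0.48 ± 0.11), as the 1 call of the 62 there, against 2.6% of all genes. Both comparisons use the same CCR2neg CX3CR1-Cre libraries, with opposite sign, so these values are not independent. With the cassette in CCR2neg cells 2 of the 62 were called, against 0.406% of all genes: Prkag2, an AMPK subunit (-0.81 ± 0.17), and the 14-3-3 gene Ywhag (-0.64 ± 0.14), both lower.

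Between the fractions 7 of these 62 were higher in CCR2pos cells (7.45% of all genes) and 1 was lower (6.41%). Eif4e, the cap-binding protein that Eif4ebp1 holds back, was at 0.39 ± 0.06, Slc3a2, the shared chain of several amino acid transporters, at 0.40 ± 0.06, and Atf4, a transcription factor of the amino acid response, at 0.16 ± 0.03. The kinase genes Pik3cd (0.34 ± 0.07) and Akt2 (0.17 ± 0.06), the calcineurin regulator Rcan1 (0.41 ± 0.09) and Smcr8 (0.27 ± 0.08) were also higher. The leucyl-tRNA synthetase gene Lars was lower (-0.21 ± 0.06). In the other 8 comparisons edgeR called 0 of the 62, with 0 to 7 at an unadjusted p under 0.05.

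Libraries carried no strand information, so reads of overlapping genes cannot be told apart. Exons overlap those of another counted gene by 18.7% of the exon length in Lamtor1, 17.7% in Nprl3, 14.3% in Ppp3r1 and 7.2% in Tsc2, and by less in Rptor, Akt1s1, Deptor, Rps6kb1 and Stk11. Fnip2, Rheb, Nprl2, Flcn, Sesn2, Sesn3 and Tsc1 have no such overlap.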

How the data were processed

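Read counts per gene, not normalized, were deposited by the authors as a single table. The submitters' processing notes list the build GRCm38 with TopHat2 2.0.10, TopHat, Bowtie2, HTSeq, edgeR and DESeq; the treatment of reads with several matches is not given there. Per the labels' protocols, SMARTer cDNA was made from 1 to 50 ng of RNA with an integrity number above 8, amplified for 12 cycles and read as unstranded single reads of 50 bases. Columns were matched to samples by name.

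CPM and log2 values were computed here. Genes were tested with edgeR 4.0.16 (quasi-likelihood F-test, TMM, R 4.3.3) in 1 fit of 8 group means over all 36 libraries, with Benjamini-Hochberg adjustment over 12795 genes. Standard errors are the log2 fold change over the square root of F. Exon lengths come from GENCODE vM21 (12788 of 12795 genes matched by identifier), promoters from RefSeq. The common dispersion was 0.0943, and at that value counting error is the smaller part for genes well above about 10 counts in a library. Counts of libraries in 1 group differed beyond sampling noise in all 64 pairs (chi-square per degree of freedom 20.0 to 118.5). The test was checked on simulated counts.

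Whether labels pair libraries was checked on the deviations from the group means. Libraries of the same label correlated at 0.188 to 0.697 where they differed in fraction or in Cre status and at 0.0473 to 0.693 where they differed in both, so the label was used as a block where the comparison allows it. Alternatives were DESeq2 1.42.0 (size factors and Wald test), limma-voom (limma 3.58.1), a filter of 1 CPM in 9 libraries, blocks, an Xist term, fits to the compared libraries and leaving out each library.

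The members and lists were chosen with earlier results of these data known. Full values go to members called in any comparison and to Flcn, Fnip1, Fnip2, Rragc, Rragd, Mtor, Rptor and Tsc2; Akt1s1, Sesn1, Eif4ebp1 and Mios were named after their values were seen. Other pathway genes are named only when called, at most 3 per list.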

Additional observations from a re-analysis of the deposited data

Results flagged for a closer look

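In 5 of 104 groups of libraries tested (13 members in 8 groups each), 1 library lay farther from the others than Dixon's limit; chance alone flags about 1 in 20, or 5.2 groups. Tsc2 was at 13.5 CPM in CCR2pos CX3CR1-Cre library 3, with the other 4 at 22.9 to 26.0. Rragd was at 2.08 CPM in CCR2pos TFEB-wt Cre-neg library 4, with the others at 0.725 to 0.917. Flcn was at 113 CPM in CCR2neg TFEB-TG Cre-neg library 1, the library with cardiomyocyte transcripts, with the others at 84.5 to 88.5. Fnip1 was at 95.4 CPM in CCR2neg TFEB-wt Cre-neg library 3, with the highest of the others at 101.6. Sesn3 was at 1.14 CPM in CCR2pos mac-TFEB library 2, with the others at 0.503 to 0.605.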

How the results depend on the processing

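Alternatives were chosen with earlier results known, and leaving out the 2 farthest libraries and splitting the fraction comparison by background were added after seeing the data. In CCR2neg cells the members called with TFEB (1 in the report) were 2 with DESeq2, 8 with limma-voom quality weights, 2 with the label as a random effect (replicate block), 2 with an Xist term, 2 without the 2 farthest libraries and 0 in a fit to the libraries compared. Over all genes 176 calls became 318, 1351, 408, 428, 386 and 71. With the cassette, 1 call became 0 in the fit to the libraries compared and 2 without the farthest libraries (52 calls over all genes became 1 and 443, and 288 with DESeq2). With Cre in TFEB-wt, 1 became 4 with the fixed replicate block, 2 with the random one and 0 with the libraries compared (333 calls over all genes became 965, 977 and 238). For TFEB beyond the cassette, 0 became 1 with the fixed replicate block (0 calls over all genes became 32). With that block the calls over all genes were also 301 against 20 (TFEB-TG CCR2neg, Cre), 26 against 2 (TFEB-TG CCR2pos), 134 against 1 (TFEB-wt CCR2pos) and 2700 against 1773 (fractions). Between fractions, 5 became 3 within TFEB-TG Cre-neg and 0 within each of the other 3 backgrounds, where Sesn3 turned to -0.62 in TFEB-wt Cre-neg cells. Leaving out 1 library at a time gave 0 to 2 calls with TFEB, 0 to 2 with the cassette, 0 to 1 with Cre in TFEB-wt, 4 to 5 between fractions and 0 in every other comparison. The block changed no other call of a member. DESeq2 size factors and the stricter filter (41 members, without Sesn3, of 12120 genes) left the counts within 1 of those reported. The cause of these changes was not tested. A fixed block cannot be fitted to the comparisons between genotypes, since each label has 1 genotype, and no fit to compared libraries was run for the fractions, which use all 36.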
